A study of Homo sapiens with 24 samples.

Results

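*ADIRF*, the long non-coding gene *ENSG00000271880* that overlaps it on the same strand, and the neighbouring genes *SNCG*, *MMRN2* and *BMPR1A* lie together on chromosome 10q23.2. They were described across 24 PRO-seq libraries to see whether transcription of the locus was lower as a whole after degradation of TRPS1, and whether it was so in each clone. *ADIRF* was chosen from these libraries, because it was the gene with the largest fall with dTAG-13 among the called genes that were lower in every pair of libraries, and the other 4 genes were chosen by their position. These are 5 of the 60605 genes in the count table, and all 5 passed the filter on low counts, which 22326 genes passed.

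PRO-seq (precision run-on sequencing) reads the growing end of RNA still held by the polymerase, so a gene's count measures transcription in progress and not the amount of mature RNA. T47D is a luminal, estrogen receptor positive breast cancer cell line. In the 3 lines used, Clone 28, Clone 35 and Clone 39, the endogenous *TRPS1* gene carries a dTAG degron, and all 6 groups carry the tag. Each clone was treated for 90 minutes with 0.1% DMSO or with 100 nM dTAG-13, a small molecule that joins the tag to an E3 ubiquitin ligase and so leads to degradation of the TRPS1 protein, in 4 replicates per group.

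Each line is 1 clone, some copies of *TRPS1* are knocked out in every clone, only tagged TRPS1 protein is made, and the untagged parental line was not compared here. The replicates were dishes of cells collected at different times of 1 day, so p-values measure the spread between those dishes. Total counts ranged from 3226718 to 9575803 per library, with a median of 5042122. The *TRPS1* gene, which dTAG-13 leaves in place, had 23280 to 69958 reads per library, and its log2 fold change with dTAG-13 was 0.19 (adjusted p = 0.733, edgeR) and 0.20 with the 12 pairs of libraries as a block (adjusted p = 6.65e-04, edgeR). Of the luminal epithelial markers, 10 of 10 passed the filter, with a summed level of 4124 to 6481 CPM (counts scaled to a common library total) in DMSO and 4275 to 5879 CPM with dTAG-13. Adipocyte markers (1 of 5 passed) summed to 1.57 to 5.00 CPM and endothelial markers (3 of 6 passed) to 5.72 to 10.7 CPM over all libraries.

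*ADIRF* encodes adipogenesis regulatory factor, a small protein known for promoting adipocyte differentiation and expressed in fat and several epithelia. *SNCG* encodes gamma-synuclein, a relative of the Parkinson's disease protein alpha-synuclein that was first described as a gene expressed in breast cancer. *MMRN2* encodes multimerin 2, an extracellular matrix glycoprotein best known from endothelium. *BMPR1A* encodes a type I receptor of bone morphogenetic proteins (BMPs), which pass their signal to SMAD transcription factors. TRPS1 is a zinc finger protein that binds GATA motifs and represses transcription.

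In the GENCODE annotation of hg38, *ADIRF* (ENSG00000148671) lies on the plus strand at chr10:86968432-86983934. Its main transcript, *ADIRF-201*, ends much earlier, at 86970915, and has 3 exons in 2434 bases, whereas a form marked for nonsense-mediated decay, *ADIRF-203*, reaches the far end of the gene. *ENSG00000271880* starts at 86970741, inside the last exon of *ADIRF-201* (86970476 to 86970915), and runs on the plus strand to 87010126 with 12 exons. *MMRN2* (ENSG00000173269) lies on the minus strand at chr10:86935540-86969481 and overlaps the first 1050 bases of *ADIRF* on the opposite strand, although its main transcript starts at 86957615 and does not reach *ADIRF*. *SNCG* (ENSG00000173267) lies within the span of *MMRN2*, on the plus strand, at chr10:86958599-86963258. *BMPR1A* (ENSG00000107779) is farther upstream, on the plus strand at chr10:86756596-86932825. The antisense gene *ADIRF-AS1* (ENSG00000272734, minus strand, chr10:86965345-86971311) is also described, since it crosses the start of *ADIRF* and shares 4137 bases with *MMRN2* on the same strand.

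**Figure D1:**
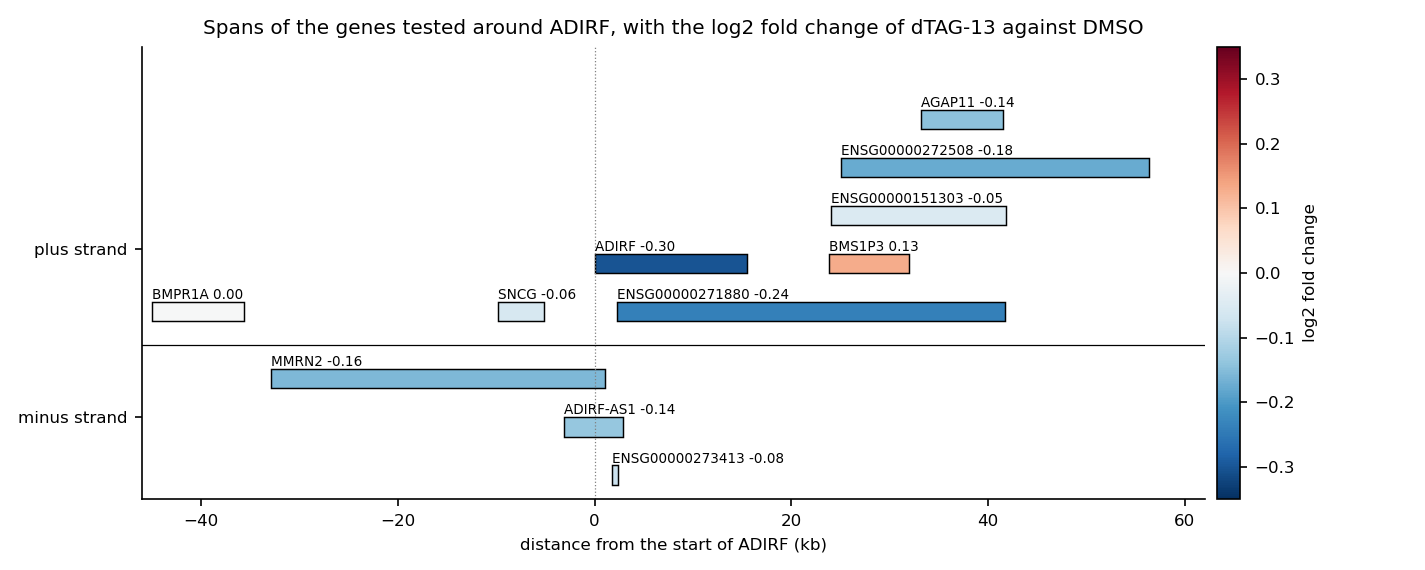
Annotated spans of the genes tested around *ADIRF*, plotted by distance in kb from its start, with plus-strand genes above and minus-strand genes below the line and the log2 fold change of dTAG-13 against DMSO (3 clones together) as colour and number. *BMPR1A* is drawn only at its 3' end; *ADIRF* (-0.30) and *ENSG00000271880* (-0.24) are the darkest blocks, and *BMPR1A* is at 0.00.

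The annotated starts of *ADIRF* and of the *MMRN2* form that starts farthest upstream lie 1.05 kb apart on opposite strands. Both genes had lower values with dTAG-13, so the 250 bases before each start are shown. They were read from hg38 on the strand of each gene, at chr10:86968182-86968431 (plus strand) for *ADIRF* and at chr10:86969482-86969731 (minus strand) for *MMRN2*. The *MMRN2* stretch lies in the first intron of *ADIRF-201*. Capitals mark the match to a GATA motif.
ADIRF: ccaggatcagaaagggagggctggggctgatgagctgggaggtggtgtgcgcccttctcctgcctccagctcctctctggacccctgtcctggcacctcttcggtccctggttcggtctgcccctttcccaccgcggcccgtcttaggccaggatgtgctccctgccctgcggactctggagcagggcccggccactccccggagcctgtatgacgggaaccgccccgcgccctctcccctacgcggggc
MMRN2: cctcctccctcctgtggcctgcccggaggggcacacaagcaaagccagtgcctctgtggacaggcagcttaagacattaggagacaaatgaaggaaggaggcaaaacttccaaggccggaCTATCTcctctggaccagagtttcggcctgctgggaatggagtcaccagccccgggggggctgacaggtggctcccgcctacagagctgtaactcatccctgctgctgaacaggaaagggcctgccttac

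The 2 motifs searched, on both strands, were GATA with A or T before it and A or G after it, and AGGTCA, which is 1 arm of the estrogen receptor motif. The *MMRN2* stretch had a single match, CTATCT, which is AGATAG read on the other strand and begins 130 bases before the start. This start is that of the form that starts farthest upstream, and the bases before the main *MMRN2* transcript were not searched. The *ADIRF* stretch had no match to either motif, and neither did those of *SNCG*, *BMPR1A*, *ADIRF-AS1* and *ENSG00000271880*. A GATA match of this kind was found in 22.3% of 35116 promoter windows of the same length taken from RefSeq, and AGGTCA in 12.1%, so that a match or its absence in 1 window is common. In base composition the *ADIRF* stretch had 69.6% G and C with 15 CpG sites, compared with 59.6% and 5 sites for *MMRN2* and 81.6% and 41 sites for *BMPR1A*.

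*ADIRF* was lower with dTAG-13 in each of the 12 pairs of libraries with the same clone and replicate number, as the plot of levels by library shows. Levels are in CPM after TMM scaling and are given for replicates 1 to 4 in turn. In Clone 28, *ADIRF* had 46.0, 55.7, 63.5 and 53.6 CPM in DMSO and 38.5, 44.1, 50.2 and 39.8 CPM with dTAG-13. In Clone 35 it had 57.2, 56.5, 65.4 and 71.2 CPM in DMSO and 52.2, 47.3, 52.6 and 51.1 CPM with dTAG-13. In Clone 39 it had 73.2, 71.3, 72.5 and 71.5 CPM in DMSO and 59.5, 50.5, 61.5 and 67.4 CPM with dTAG-13. The ranges of the 2 treatments did not overlap in Clone 35 and Clone 39, and in Clone 28 they overlapped because dTAG-13 replicate 3 was above DMSO replicate 1. The share of all genes with ranges that do not overlap was not counted. Since *ADIRF* was chosen as lower in every pair, nothing is read from these ranges. Replicate 3 was the highest of Clone 28 under both treatments. These levels came from 161 to 515 reads per library.

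**Figure D2:**
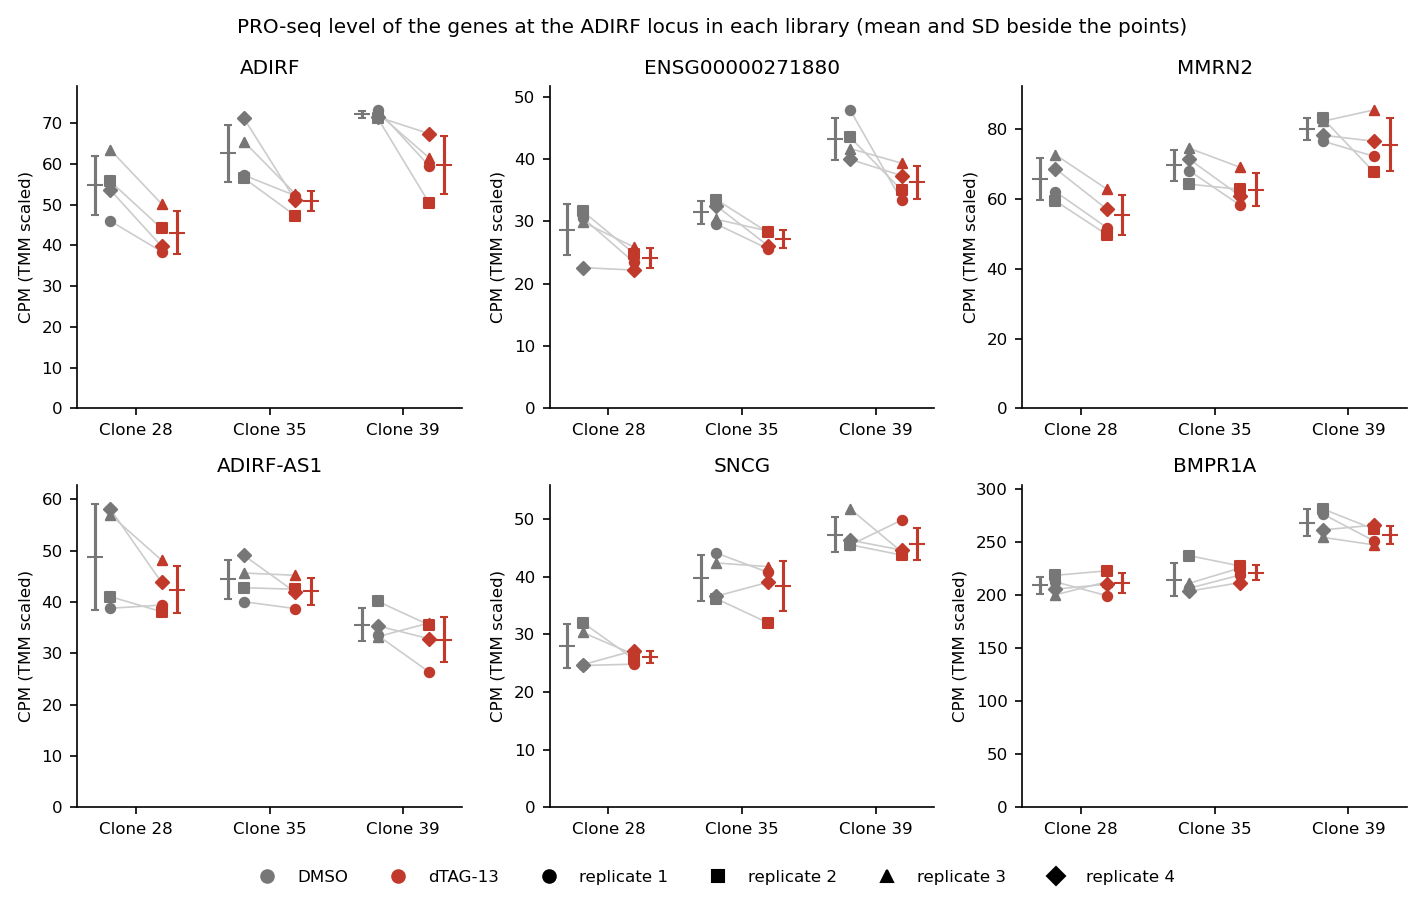
Level of each gene in CPM in all 24 libraries, with DMSO in grey, dTAG-13 in red, a marker shape for each replicate, lines joining libraries of the same replicate, and the mean and SD (n = 4) beside the points. For *ADIRF* and *ENSG00000271880* every line goes down, for *MMRN2* 11 of 12 do, and for *BMPR1A* 5 of 12 do.

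With the 3 clones together and clone in the model, the log2 fold change of *ADIRF* with dTAG-13 was -0.30 (standard error 0.052, n = 12 per treatment). It was -0.34 (standard error 0.096) in Clone 28, -0.30 (0.091) in Clone 35 and -0.27 (0.094) in Clone 39. These values are given without a test, because *ADIRF* was chosen on this contrast. For scale, 43 genes, or 0.193% of those tested, were called lower with the 3 clones together (Benjamini-Hochberg adjusted p under 0.1 in edgeR), and 44 genes, or 0.197%, were lower in 12 of 12 pairs. *ADIRF* was sixth by size among those called lower, and the 5 with larger falls were lower in 9 to 11 pairs. *RBBP8NL*, next among the called genes that were lower in all 12 pairs, had a log2 fold change of -0.298 compared with -0.303 for *ADIRF*. In libraries of bulk cells, lower transcription in every cell and fewer cells that transcribe the gene cannot be told apart.

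The size of the *ADIRF* difference varied among pairs and was not shown to differ between clones. On the log2 scale, the 4 pairs ranged from -0.43 to -0.26 in Clone 28, from -0.48 to -0.13 in Clone 35 and from -0.50 to -0.085 in Clone 39. The test of a difference in fold change between clones did not pass for any of the 5 genes, with an adjusted p of 1.00 in edgeR. In general 0 of 22326 genes (0%) passed this test, with 407 at an unadjusted p under 0.05. When the pairs were a block, 1 gene (0.00448%) passed, with 1017 at an unadjusted p under 0.05. With 4 libraries per group, the lack of calls does not show that the clones responded alike. *ADIRF* was also chosen as lower in every pair of each clone, which favours like values. The 95% interval of the *ADIRF* change was -0.53 to -0.14 in Clone 28, -0.49 to -0.12 in Clone 35 and -0.46 to -0.077 in Clone 39. Because of that choice these intervals are a description only, and their distance from 0 is not a test.

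*ENSG00000271880* had lower values with dTAG-13 in the same 12 pairs. In Clone 28 its level was 30.6, 31.6, 29.9 and 22.6 CPM in DMSO and 23.4, 24.8, 25.9 and 22.2 CPM with dTAG-13 in replicates 1 to 4. In Clone 35 its level was 29.6, 33.5, 30.3 and 32.5 CPM in DMSO and 25.6, 28.3, 28.5 and 26.1 CPM with dTAG-13. In Clone 39 its level was 47.9, 43.5, 41.7 and 40.0 CPM in DMSO and 33.4, 35.01, 39.3 and 37.3 CPM with dTAG-13. The treatments did not overlap in Clone 35 and Clone 39, whereas in Clone 28 the low DMSO replicate 4 lay within the range of dTAG-13. Here too the share over all genes was not counted, and nothing is read from the ranges. The log2 fold change was -0.24 (standard error 0.053) with the 3 clones together, and -0.24, -0.22 and -0.26 in Clones 28, 35 and 39. It is also given without a test, since its reads are partly those of *ADIRF*.

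How far the counts of these overlapping genes are the same reads was examined from the table. Among pairs of genes in which one lies within the other on the same strand, the inner gene had more reads than the outer one in 15 of 2617 pairs (0.573%), compared with 329 of 2185 pairs (15.1%) on opposite strands, counting inner genes with at least 100 reads. This is the pattern given by strand-specific counting in which reads of a shared stretch count for both genes. *ADIRF* had 7099 reads over all libraries and *ENSG00000271880* had 3887. If the counted spans were those of GENCODE, at least 3212 *ADIRF* reads (45.2%) lay in the 2309 bases before the start of *ENSG00000271880*, with 30.6% to 57.9% in single libraries. By the same reasoning at least 87.3% of the *ENSG00000271880* reads lay in its first 21665 bases, 13194 of which are shared with *ADIRF*, because *ENSG00000151303*, which covers the rest, had only 493 reads. In the shared stretch the counts cannot tell the 2 genes apart.

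Genes that lie at the far end of *ENSG00000271880* had few reads and wide intervals. *ENSG00000151303* had a log2 fold change of -0.050 (95% interval -0.29 to 0.19) and *ENSG00000272508* of -0.18 (-0.36 to 0.0093). *AGAP11*, annotated as a pseudogene of the ArfGAP family, had -0.14 (-0.50 to 0.21) and the pseudogene *BMS1P3* had 0.13 (-0.30 to 0.56). None of these 4 genes passed the test, with adjusted p-values of 0.855 to 1.00 from edgeR. *AGAP11* and *BMS1P3* belong to families of near-identical copies, so their reads are uncertain.

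*MMRN2*, on the opposite strand, was lower with dTAG-13 in 11 of 12 pairs, and its call depended on whether the pairs were in the model. In Clone 28 *MMRN2* had 62.2, 59.5, 72.7 and 68.7 CPM in DMSO and 51.8, 49.8, 62.9 and 57.1 CPM with dTAG-13. In Clone 35 the values were 68.2, 64.3, 74.6 and 71.5 CPM in DMSO and 58.2, 62.8, 69.1 and 60.8 CPM with dTAG-13. In Clone 39 they were 76.6, 83.1, 82.3 and 78.3 CPM in DMSO and 72.2, 67.7, 85.6 and 76.6 CPM with dTAG-13. The treatments overlapped in every clone, and the pair that went the other way was replicate 3 of Clone 39, whose dTAG-13 library was the highest of all 24 for *MMRN2*.

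The log2 fold change of *MMRN2* was -0.16 (standard error 0.046, 95% interval -0.25 to -0.066) and did not pass the threshold with the 3 clones together (adjusted p = 0.173, edgeR). With the 12 pairs as a block it was -0.16 and passed (adjusted p = 0.00378, edgeR), as did 208 genes (0.932%) that were lower in that fit. Without dTAG-13 replicate 3 of Clone 39, and with no block, it was -0.18 with an adjusted p of 0.0756 from edgeR. Of the 24 fits that each left out 1 library, only this 1 passed, and the highest adjusted p was 0.420 (edgeR). By clone the log2 fold change was -0.24 in Clone 28, -0.15 in Clone 35 and -0.086 in Clone 39, and it passed only in Clone 28 with the block (-0.25, adjusted p = 0.0315, edgeR), where 86 genes (0.385%) were called lower. Without the block 2 genes (0.00896%) were called lower in Clone 28, and the log2 fold change of *MMRN2* did not pass there (adjusted p = 0.577, edgeR). The difference between clones was covered by the test above, which it did not pass.

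*ADIRF-AS1* was lower with dTAG-13 in 10 of 12 pairs, with a log2 fold change of -0.14 (standard error 0.064, 95% interval -0.27 to -0.0059) that did not pass the test (adjusted p = 0.752, and 0.157 with the block, edgeR). Its group means were 48.7 ± 10.2 CPM (SD, n = 4) in DMSO and 42.4 ± 4.56 CPM with dTAG-13 in Clone 28, 44.4 ± 3.87 and 42.1 ± 2.66 CPM in Clone 35, and 35.6 ± 3.20 and 32.7 ± 4.40 CPM in Clone 39. All 3 differences were smaller than the SD of at least 1 of the groups compared. These SDs ignore the pairs and include differences between replicate numbers. With the block the standard error of the log2 fold change was 0.046. *ADIRF-AS1* had 5196 reads over all libraries and *MMRN2* 8423, so at least 38.3% of the *MMRN2* reads lay outside *ADIRF-AS1*. The part of the shared reads in the *MMRN2* difference was not tested.

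*SNCG* and *BMPR1A* did not pass the test with dTAG-13. *SNCG* had 24.6, 32.1, 30.3 and 24.7 CPM in DMSO and 24.8, 25.7, 26.5 and 27.2 CPM with dTAG-13 in Clone 28. In Clone 35 it had 44.1, 36.2, 42.4 and 36.6 CPM in DMSO and 40.8, 32.0, 41.8 and 39.03 CPM with dTAG-13, and in Clone 39 it had 45.5, 45.6, 51.8 and 46.3 CPM in DMSO and 49.8, 43.8, 44.3 and 44.6 CPM with dTAG-13. The treatments overlapped in every clone and 8 of 12 pairs were lower. The log2 fold change was -0.060 (standard error 0.054, 95% interval -0.17 to 0.049, adjusted p = 0.991, edgeR), and -0.10, -0.039 and -0.049 in Clones 28, 35 and 39. The interval does not reach the *ADIRF* value of -0.30. That value comes from the contrast on which *ADIRF* was chosen, and a difference between *SNCG* and *ADIRF* was not tested.

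*BMPR1A* was the most deeply covered of the 5 genes, with 793 to 2159 reads per library. Its mean was 209.5 ± 8.03 CPM (SD, n = 4) in DMSO and 212 ± 9.61 CPM with dTAG-13 in Clone 28, 215 ± 15.4 and 221 ± 7.11 CPM in Clone 35, and 269 ± 12.6 and 257 ± 8.85 CPM in Clone 39. The log2 fold change was -0.0025 (standard error 0.032, 95% interval -0.067 to 0.062, adjusted p = 1.00, edgeR), with values of 0.014, 0.042 and -0.064 in the 3 clones. A change of *BMPR1A* beyond 0.067 in either direction is thus outside the interval.

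**Figure D3:**
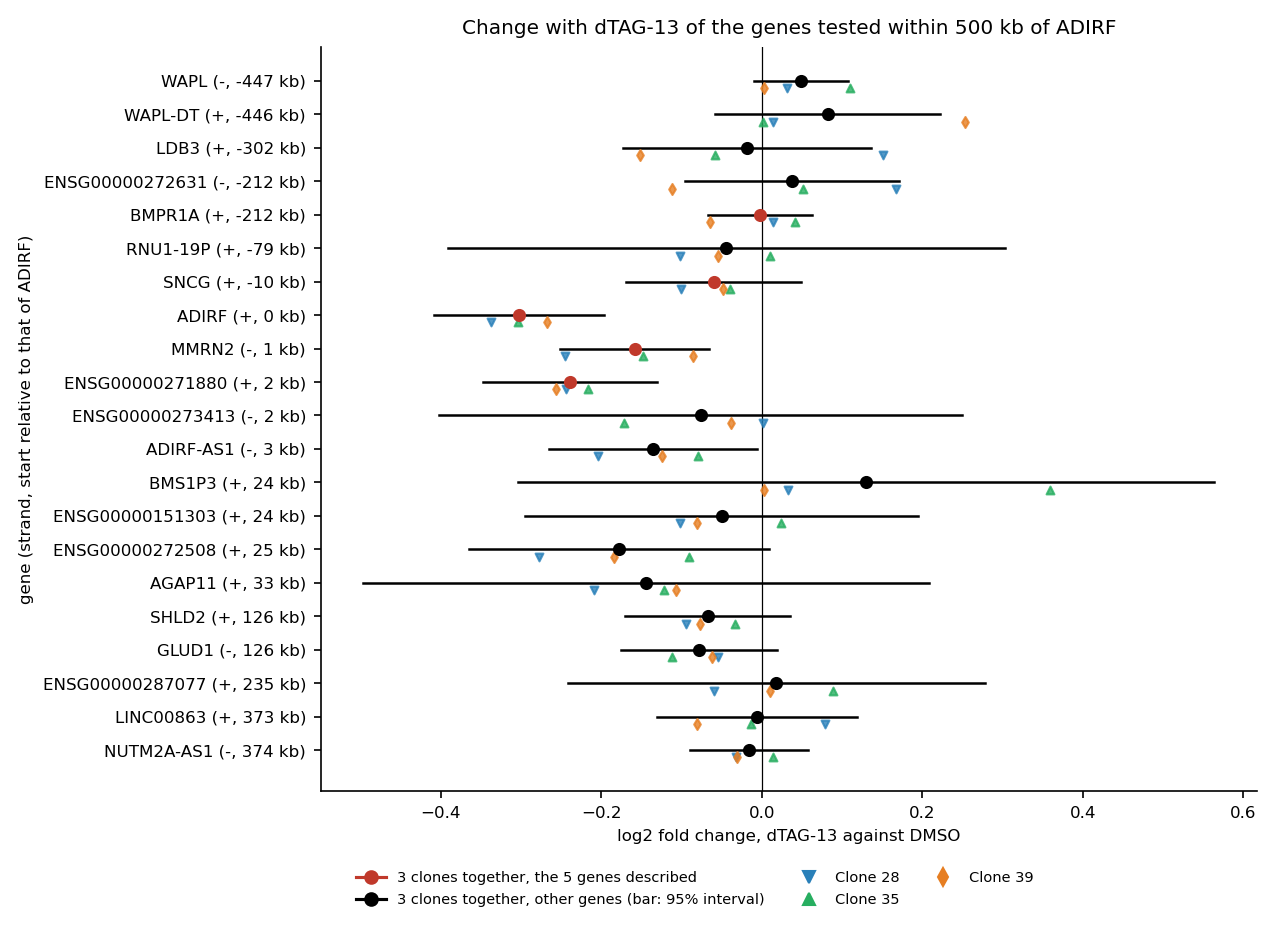
Log2 fold change of dTAG-13 against DMSO for the 21 genes tested within 500 kb of *ADIRF*, ordered by the position of their start relative to that of *ADIRF*, with circles and bars for the 3 clones together (95% interval) and small markers for each clone. *ADIRF* and *ENSG00000271880* lie farthest to the left with all 3 clones at -0.22 or below, and genes with wide bars such as *BMS1P3* had few reads. The bars of *ADIRF*, which was chosen on this contrast, and of *ENSG00000271880*, which shares its reads, are a description and not a test.

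Most genes of the surrounding region did not pass the test. Of 40 genes annotated within 500 kb of *ADIRF*, 21 were tested, and 16 of these had a negative log2 fold change, with a median of -0.050 compared with -0.0018 over all genes tested. Called in this window were *ADIRF*, which was chosen on this contrast, and *ENSG00000271880*, which shares reads with it, and with the block *MMRN2* as well, so that nothing is read from this count. Within 100 kb 12 of 13 genes tested were negative, with a median of -0.078, and within 1000 kb 21 of 32 were, with a median of -0.041. Many of these genes overlap each other and share reads, so they are not independent. The counts of negative genes and the medians include *ADIRF* and *ENSG00000271880*. The share of negative values over all genes tested was not counted, and nothing is read from these counts.

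The other genes of the window had values on both sides of 0. Downstream of *ADIRF*, *GLUD1*, which encodes glutamate dehydrogenase, had a log2 fold change of -0.078 (95% interval -0.17 to 0.019), and *SHLD2*, which encodes a shieldin subunit of DNA repair, of -0.068 (-0.17 to 0.035). The long non-coding genes *NUTM2A-AS1* and *LINC00863* had -0.016 and -0.0057, and *ENSG00000287077* had 0.018. Upstream, *WAPL*, which encodes a cohesin release factor, had 0.049 (-0.0099 to 0.11), *WAPL-DT* 0.082, the muscle Z-disc gene *LDB3* -0.018 and *ENSG00000272631* 0.037. The U1 pseudogene *RNU1-19P* had -0.044 and *ENSG00000273413*, within *ADIRF* on the opposite strand, -0.076. None of these 11 genes passed edgeR's test with or without the block.

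Without dTAG-13 the clones differed in the level of the 5 genes and of *ADIRF-AS1*, and the differences did not run in 1 direction. In DMSO, *ADIRF* had a mean of 54.7 ± 7.19 CPM (SD, n = 4) in Clone 28, 62.6 ± 7.03 CPM in Clone 35 and 72.1 ± 0.897 CPM in Clone 39, and *ENSG00000271880* had 28.7 ± 4.12, 31.5 ± 1.83 and 43.3 ± 3.41 CPM. *SNCG* had 27.9 ± 3.83, 39.8 ± 4.01 and 47.3 ± 3.01 CPM, and *MMRN2* had 65.8 ± 6.05, 69.6 ± 4.42 and 80.1 ± 3.12 CPM. All 5 genes passed the test of a difference between clones in DMSO, with adjusted p-values of 0.00557 for *ADIRF*, 1.44e-05 for *ENSG00000271880*, 9.95e-07 for *SNCG*, 0.0218 for *MMRN2* and 4.31e-06 for *BMPR1A* (edgeR's quasi-likelihood test). Such differences were common, since 6361 genes, or 28.5% of those tested, passed the same test.

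**Figure D4:**
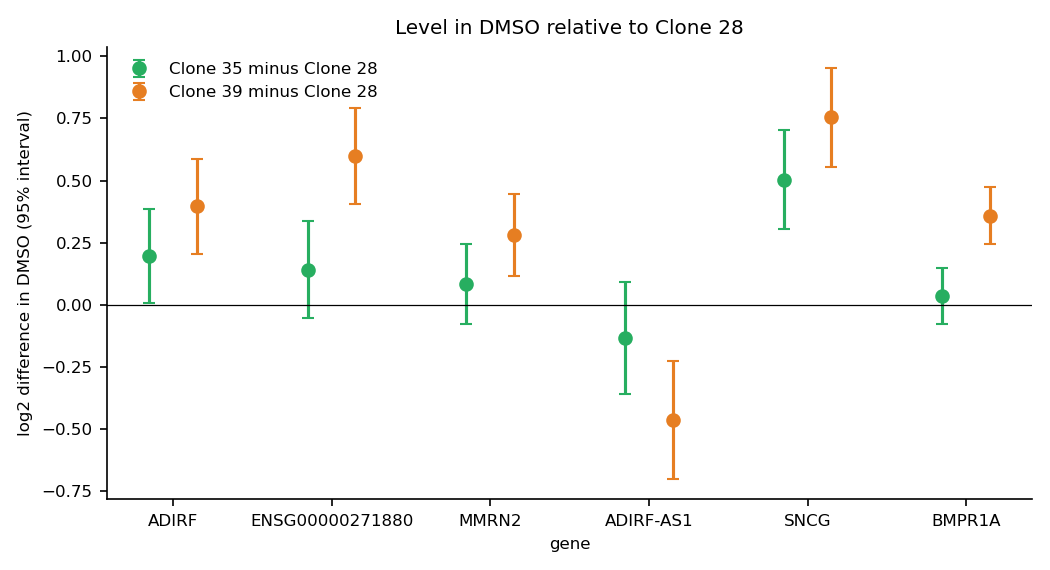
Difference in DMSO of Clone 35 (green) and Clone 39 (orange) from Clone 28 on the log2 scale, with 95% intervals, for each gene at the locus. In Clone 39 the 5 genes lie between 0.28 and 0.75 above Clone 28 and *ADIRF-AS1* lies 0.46 below it.

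Clone 39 had the higher level of all 5 genes. Its log2 difference from Clone 28 was 0.40 for *ADIRF* (95% interval 0.21 to 0.59, adjusted p = 0.00177, edgeR), 0.60 for *ENSG00000271880*, 0.75 for *SNCG*, 0.28 for *MMRN2* and 0.36 for *BMPR1A*, all past the threshold, in a comparison that called 12.4% of genes higher. *ADIRF-AS1*, which crosses the start of *ADIRF*, differed in the opposite direction, with a log2 difference of -0.46 (95% interval -0.70 to -0.23, adjusted p = 0.00337, edgeR), where 14.3% of genes were called lower. Between Clone 35 and Clone 28 only *SNCG* passed, with 0.50 (95% interval 0.31 to 0.70, adjusted p = 0.00116, edgeR), where 2.24% of genes were called higher, and *ADIRF* had 0.20 (0.0093 to 0.39, adjusted p = 0.325, edgeR). The order of the clones by mean level was the same for the 5 genes, but Clone 28 and Clone 35 were not distinguished for 4 of them. Since each line is 1 clone, differences between clones and differences in the number of *TRPS1* copies left intact cannot be told apart.

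Levels of different genes were compared only per length, as CPM per kb of annotated span (RPKM). In DMSO the median over 12 libraries was 8.48 RPKM for *SNCG*, 6.80 for *ADIRF-AS1*, 4.16 for *ADIRF*, 2.12 for *MMRN2*, 1.22 for *BMPR1A* and 0.814 for *ENSG00000271880*. The ranges of *SNCG* (5.28 to 11.1) and *ADIRF-AS1* (5.57 to 9.74) overlapped, as did those of *BMPR1A* (1.14 to 1.60) and *ENSG00000271880* (0.573 to 1.22). *ADIRF* (2.97 to 4.72) did not overlap with its neighbours in this order. Most of the *ADIRF* span is reached only by the form marked for decay, so its value per kb depends on the end that is taken.

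The level of some genes also moved with the replicate number. The study states that replicates were collected at different times of 1 day, but the labels tie no number to a time. On the log2 scale and relative to the group means, *MMRN2* deviated by -0.070 ± 0.027, -0.082 ± 0.089, 0.13 ± 0.056 and 0.018 ± 0.044 (SD, n = 6) in replicates 1 to 4, and *ADIRF* by -0.075 ± 0.11, -0.069 ± 0.11, 0.10 ± 0.094 and 0.040 ± 0.12. Both differences between numbers passed the test, with adjusted p-values of 4.76e-04 for *MMRN2* and 0.0391 for *ADIRF* (edgeR), and so did those of *ADIRF-AS1* (0.00348) and *BMPR1A* (0.0520), in a test that 37.2% of genes passed. *SNCG* (0.297) and *ENSG00000271880* (0.439) did not pass it. Whether replicate 1 of each clone was collected at the same time is not stated, so the number is used as a label only.

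Apart from treatment and clone, *MMRN2* was the gene at the locus whose deviations most resembled those of *ADIRF*, but no correlation held after adjustment. Over 24 libraries, with group means removed, Pearson's r between *ADIRF* and *MMRN2* was 0.567 (p = 0.0265, adjusted over 5 relations 0.133, permutation within groups, two-sided) and Spearman's rho was 0.514 (p = 0.0415, adjusted 0.207, permutation). Without the 2 libraries farthest from the median of *ADIRF*, r was 0.488. Within replicate numbers 1 to 4 it was -0.11, 0.10, 0.58 and 0.041. Differences between replicate numbers, which both genes showed, were not removed, and their part in r was not tested. For *ENSG00000271880*, *SNCG*, *ADIRF-AS1* and *BMPR1A*, r was 0.224, 0.334, 0.400 and -0.18, with adjusted p-values of 0.294 to 0.468 (permutation).

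The genes most like *ADIRF* over all 24 libraries were not on chromosome 10. With the mean of each clone removed, the highest Pearson correlations of log2 CPM among 22321 genes that do not overlap *ADIRF* were those of *C6orf132* (r = 0.875), the epithelial sodium channel subunit *SCNN1A* (0.851), the procollagen C-proteinase *BMP1* (0.822), the AMPA receptor auxiliary subunit *CACNG4* (0.778) and *RBBP8NL* (0.766). Only clone means were removed, so the difference with dTAG-13, on which *ADIRF* was chosen, is part of these values. These libraries share treatment and collection time, so the values are a description. By the same measure *SNCG* had r = 0.417 and *BMPR1A* r = -0.11, and the middle 95% of all genes ran from -0.52 to 0.51.

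Genes of the families and pathways to which the neighbours belong were also listed. In the synuclein family, 2 of 3 genes were tested and 0 passed edgeR's test with dTAG-13 (0 at an unadjusted p under 0.05), with *SNCB* at -0.31 (95% interval -0.71 to 0.091). Of the multimerin and EMILIN family with the endothelial partners of *MMRN2*, 3 of 8 were tested and only *MMRN2* passed, with the block. *CD93*, *CLEC14A* and *CD248*, which encode endothelial or stromal receptors that bind multimerin 2, had 7, 5 and 5 reads in all 24 libraries together and were not tested. Of the AGAP family all 10 were tested and 0 passed in either edgeR fit (0 and, with the block, 1 at an unadjusted p under 0.05). DESeq2 called none of those genes of the 3 lists for which it gave an adjusted p.

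In the BMP pathway around *BMPR1A*, 0 of 6 ligands, 0 of 7 receptors and 0 of 4 SMADs tested passed in either edgeR fit. At an unadjusted p under 0.05 without the block there were 1 ligand, 2 receptors and 0 SMADs, and DESeq2 called none for which it gave an adjusted p. Among the receptors, *BMPR1B* had a log2 fold change of 0.21 (95% interval 0.0041 to 0.41, adjusted p = 0.772, edgeR), *BMPR2* of -0.028 and the activin receptor *ACVR2A* of 0.15 (adjusted p = 0.621, edgeR). Of 9 BMP target genes tested 2 had an unadjusted p under 0.05 without the block (edgeR). After adjustment 1 passed, beside 0.193% of all genes called lower and 0.551% called in either direction. It was the inhibitory SMAD *SMAD6*, which fell by 0.18 on the log2 scale (standard error 0.047, adjusted p = 0.0897, edgeR) and was lower in 12 of 12 pairs, and DESeq2 called it too. The median log2 fold changes of the ligands, receptors, SMADs and targets were between -0.059 and -0.026, beside -0.0018 for all genes.

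Of 12 adipogenic regulators, all tested, 2 had an unadjusted p under 0.05 without the block (edgeR). After adjustment 1 passed, with the block only. This was *KLF5*, a zinc finger transcription factor of adipocyte and epithelial differentiation, with -0.23 (adjusted p = 0.0461 with the block and 0.349 without, edgeR) and lower values in 10 of 12 pairs. Of 14 adipocyte product genes 8 were tested and 0 passed in either edgeR fit (0 at an unadjusted p under 0.05), and the median log2 fold change was -0.012 for the regulators and -0.0068 for the products. With the block 2.33% of all genes passed in either direction, compared with 0.551% without it.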

How the data were processed

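Nascent transcription was measured by PRO-seq in 3 clones (28, 35, 39) under DMSO or dTAG-13, 4 libraries per group, with groups taken from the sample labels. The authors trimmed adapters (cutadapt 1.8.1), removed duplicates by unique molecular identifiers, discarded reads of ribosomal DNA, aligned the rest to hg38 (Bowtie2 2.4.4, SAMtools 1.9, per the submitters' processing notes) and used bedtools to count per gene. What the authors deposited are whole-number read counts that were not normalized. The annotation release used for counting is not given in the sources used here, so names and coordinates are those of GENCODE release 44, in which 60463 of 60605 identifiers were found. Members and gene lists were chosen with earlier results of these data known.

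Tests were run in edgeR 4.0.16 under R 4.3.3 (TMM scaling, filterByExpr with a minimum count of 10, robust quasi-likelihood fit, Benjamini-Hochberg adjustment over 22326 genes, threshold 0.1 after the study). The model had clone and treatment, or the 6 groups (18 residual degrees of freedom) for values per clone, clone differences and, with a term added, replicate numbers. The replicate numbers were taken to pair the libraries. The study states that replicates were collected at different times of 1 day with the treatments together, but the labels give only the number. Libraries of a pair deviated together from their group means (correlation 0.0926 to 0.318, mean 0.185), and the block is a term for each of the 12 pairs. The chi-square of replicates against each other, divided by its degrees of freedom, was 1.65 to 13.6 over 36 pairs, so the spread between replicates exceeded counting error and no 2 libraries looked alike. On simulated counts for the 3 clones together (200 genes changed), 146 of 200 genes were recovered when the log2 change was 0.5 (11 false calls) and 99 when it was 0.3 (13 false calls). Log2 CPM had a prior count of 2. Named were the 5 genes, the other genes tested within 500 kb of *ADIRF*, listed genes past the threshold with or without the block (1 is not reported here) and the 5 genes most correlated with *ADIRF*. *SNCB*, *CD93*, *CLEC14A*, *CD248*, *BMPR1B*, *BMPR2* and *ACVR2A* were named after their values were seen. The alternatives were RLE scaling, library totals, no filter, DESeq2 1.42.0, the block, leaving out libraries or clones, 1 clone only, and a threshold of 0.05.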

Additional observations from a re-analysis of the deposited data

Results flagged for a closer look

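A single library stood apart from the other 3 of its group for *SNCG* on 2 occasions, both in Clone 39. In DMSO, replicate 3 had 51.8 CPM, with the others between 45.5 and 46.3 CPM. With dTAG-13, replicate 1 had 49.8 CPM, with the others between 43.8 and 44.6 CPM. These were 2 of 30 groups of 4 libraries examined by Dixon's test at the 95% level, and chance alone would flag about 1.5. They are different replicate numbers, so the pairs of replicates 1 and 3 differ in opposite directions.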

How the results depend on the processing

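The values of *ADIRF* and *ENSG00000271880* with dTAG-13 kept their negative sign under every alternative run. This was nearly fixed in advance, since *ADIRF* was chosen for its fall and both genes were lower in 12 of 12 pairs. It is a description and no support for the fall. Leaving out 1 library gave -0.33 to -0.28 for *ADIRF* with the 3 clones together, and -0.42 to -0.26 for *ADIRF* in Clone 28. *MMRN2* passed the threshold only with no filter on low counts (-0.16, adjusted p = 0.0946), with the replicate block (-0.16, adjusted p = 0.00378, and -0.25, adjusted p = 0.0315 in Clone 28) and without dTAG-13 replicate 3 of Clone 39, and ranged from -0.18 to -0.14 when 1 library was left out (all edgeR). *BMPR1A*, close to 0, turned positive with DESeq2 (0.00029) and without Clone 39 (0.030), and ranged from -0.012 to 0.012 when 1 library was left out, and from -0.013 to 0.041 in Clone 28. *SNCG* in Clone 35 ranged from -0.082 to 0.032 in the same way. The difference of *BMPR1A* between replicate numbers was lost with library totals (adjusted p = 0.132, edgeR). The number of genes called with the 3 clones together, 123, became 64 at a threshold of 0.05, 197 with no filter, 521 with the replicate block, 1 without Clone 28, 37 without Clone 35 and 37 without Clone 39. It ranged from 66 to 149 when 1 library was left out, and moved by over 1.5 times without DMSO replicate 3 (78) or 4 (66) or dTAG-13 replicate 1 (75) or 2 (67) of Clone 28, dTAG-13 replicate 3 of Clone 35 (77) or DMSO replicate 3 of Clone 39 (80). Fewer libraries are tested in these fits, and other causes were not tested. With nothing removed, 2 of the 5 genes most like *ADIRF* were the same. With dTAG-13 the replicate block changed no call of *SNCG*, *BMPR1A* or *ADIRF-AS1*, and no call is given for *ADIRF* and *ENSG00000271880*, which were not tested on this contrast. A fit of the reads of *ENSG00000271880* outside *ADIRF* was not run, because GENCODE does not place one gene inside the other. Depth limits the genes at the far end of *ENSG00000271880*, with 204 to 1092 reads in all libraries together.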
